A study of Saccharomyces cerevisiae with 14 samples.

Results

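The 33 genes described here encode 32 subunits of the yeast proteasome and Rpn4, the transcription factor that drives their expression. They were taken by systematic name from a table of 6664 genes and comprise PRE1 to PRE10, PUP1 to PUP3, SCL1, RPN1 to RPN13 and RPT1 to RPT6. All 33 passed the filter on low values (at least 1 FPKM in at least 3 libraries) and were among the 6267 genes tested. Messenger RNA of Saccharomyces cerevisiae was measured in 14 poly(A) libraries, to ask how loss of FPT1 alters transcript levels in glucose and after a move to ethanol. Wild-type cells were BY4741 (MATa his3Δ1 leu2Δ0 met15Δ0 ura3Δ0), with 3 libraries in each medium. Deletion cells carried the same markers and fpt1::KanMX, a replacement of FPT1 by a drug-resistance cassette, with 4 libraries in each medium, of which replicates 1 to 3 are strain NKI5633 and replicate 4 is strain NKI5620. Cultures in YEPD, a rich medium with glucose, were at mid-log phase, and those of the ethanol groups then spent 2 h in ethanol at 30 °C. The series text calls the replicates biological. Separate cultures are named in no label, so a p-value speaks only for the variation among these samples, part of which may be technical.

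The proteasome is the chamber in which the cell breaks down proteins tagged with ubiquitin. Its core particle is a stack of rings, with alpha subunits that gate the entrance and beta subunits that line the cavity, and 3 of the beta subunits (encoded by PRE2, PRE3 and PUP1) cut the peptide chain. The regulatory particle has a base, with a ring of ATPases (RPT1 to RPT6) that unfold substrates and receptors for ubiquitin (RPN1, RPN10 and RPN13), and a lid, in which Rpn11 removes ubiquitin before entry. Rpn4 binds a promoter element called PACE, for proteasome-associated control element, and is itself destroyed by the proteasome, which forms a feedback loop known in this yeast.

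PACE, spelled GGTGGCAAA, was searched on both strands from 250 bases before to 50 bases after the first base of each start codon in the RefSeq R64 genome. It was found once in 27 of the 33 windows (81.8%), against 72 of all 6007 windows of that length (1.2%), which include the 27. No window of a member held more than 1 copy. The element is known from proteasome genes, so these shares describe the windows and are not a test. The shorter form GGTGGCAA, which lies inside PACE, was found in the same 27 and in 1.68% of all windows. The copies lay 84 to 183 bases before the start codon, with a median of 120, and 19 read along the gene while 8 read against it. The windows below show PACE in capitals, on the strand of the gene and 5′ to 3′, for the genes the results turn on: the catalytic PRE2 and PRE3, PRE10 and PRE8 with large responses to ethanol, RPN1 and RPN2 with small ones, and RPN11, RPN5 and SCL1, whose copy also lies before a neighbouring gene. TTTGCCACC is PACE read on the other strand.
PRE2 (chrXVI:732178-732218, plus): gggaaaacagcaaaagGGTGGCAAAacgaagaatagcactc
PRE3 (chrX:435029-435069, plus): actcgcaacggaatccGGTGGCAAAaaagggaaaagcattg
PRE10 (chrXV:1018850-1018890, minus): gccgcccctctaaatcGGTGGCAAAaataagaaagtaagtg
PRE8 (chrXIII:86835-86875, minus): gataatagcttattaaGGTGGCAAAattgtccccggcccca
RPN1 (chrVIII:164832-164872, minus): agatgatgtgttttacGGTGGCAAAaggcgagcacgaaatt
RPN2 (chrIX:220795-220835, minus): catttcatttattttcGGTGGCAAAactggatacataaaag
RPN11 (chrVI:153253-153293, plus): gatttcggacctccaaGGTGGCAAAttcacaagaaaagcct
RPN5 (chrIV:190770-190810, plus): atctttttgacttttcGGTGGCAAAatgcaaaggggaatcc
SCL1 (chrVII:475331-475371, minus): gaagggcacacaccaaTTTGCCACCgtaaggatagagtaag

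The 5 other subunit genes each held a copy that departs from PACE by 1 base, shown next with that copy in capitals. Positions are counted from 1 at the first base of the motif on its own strand. The substitution was G1A in PRE5, PUP1 and RPN8 and A7G in RPN10 and RPN13. PACE or a copy with 1 mismatch was thus present before all 32 subunit genes and in 454 of 6007 windows (7.56%). RPN4 had neither in its window, and none of the other motifs searched there. Bases further upstream of RPN4 were not searched.
PRE5 (chrXIII:901546-901586, plus): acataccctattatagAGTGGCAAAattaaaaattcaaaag
PUP1 (chrXV:631885-631925, minus): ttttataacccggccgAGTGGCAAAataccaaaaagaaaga
RPN8 (chrXV:817079-817119, minus): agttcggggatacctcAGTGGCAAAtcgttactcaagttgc
RPN10 (chrVIII:498962-499002, plus): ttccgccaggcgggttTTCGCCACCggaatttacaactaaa
RPN13 (chrXII:965650-965690, minus): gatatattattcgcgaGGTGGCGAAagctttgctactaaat

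Other motifs were searched in the same windows. The stress element AGGGG occurred in 8 of 33 windows (24.2%) against 21.6% of all windows, and the Yap1 site (TTAGTAA or TTACTAA, each the other strand of the other) in 3, those of PRE5, RPN7 and RPN8 (9.09% against 7.47%). The Pdr1 and Pdr3 site (TCCGCGGA or TCCGTGGA) occurred in RPN11 alone, inside its coding region (3.03% of the members' windows against 0.616% of all).

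Subunit transcripts were abundant and lay close together in glucose, and RPN4 was the least abundant member in every group. FPKM, the deposited unit, scales the fragments of a gene to its length and to the mapped reads of the library, so levels of different genes can be set side by side. In wild-type glucose libraries the 32 subunit genes ran from a mean level of 219 FPKM for RPN2, a scaffold of the base, to 681 FPKM for PRE9, an alpha subunit, with a median of 357. The least abundant subunit gene exceeded 82.9% of the genes tested, whose median was 55.1 FPKM. Median levels by place in the complex were 432 FPKM for the 7 alpha genes, 471 for the 7 beta genes, 347 for the 6 base ATPase genes, 270 for the 4 other base genes and 371 for the 8 lid genes. RPN4 stood at 134, 126 and 127 FPKM in these libraries. In deletion glucose libraries PRE9 was again highest at 660 FPKM and RPN2 the lowest subunit gene at 222, with a median of 364. PRE9 is YGR135W and RPN2 is YIL075C (chrIX:217863-220700, minus).

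In ethanol the levels spread apart. Wild-type means then ran from 226 FPKM for RPN2 to 1065 for PRE9, with a median of 524, and deletion means from 203 to 953, with a median of 484. The ratio of the highest to the lowest subunit gene was 3.10 in wild-type glucose, 2.97 in deletion glucose, 4.72 in wild-type ethanol and 4.69 in deletion ethanol. The coefficient of variation across the 32 genes was 30.6%, 30.7%, 40.6% and 39.4% in the same order. These ratios compare genes within a group and do not depend on a common scaling of its libraries.

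**Figure D1:**
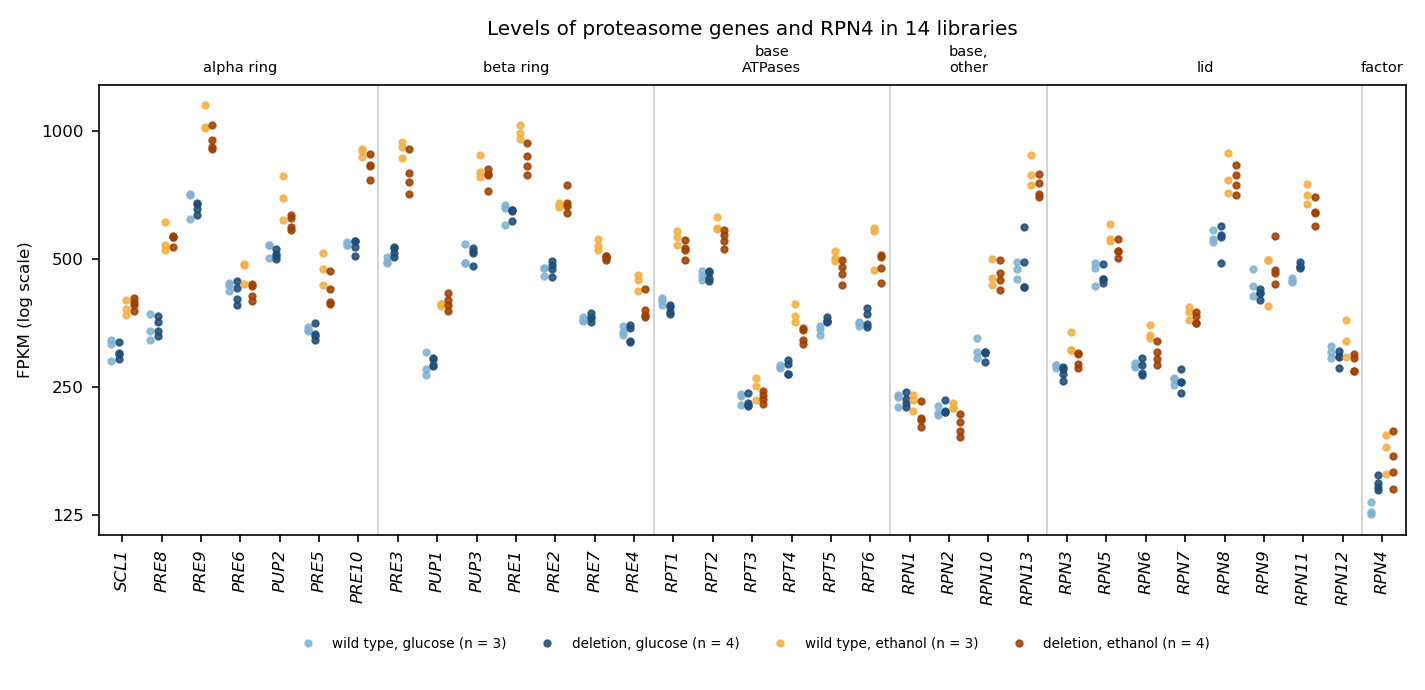
FPKM (log axis) of each of the 33 genes in the 14 libraries, 1 point per library, with genes ordered by their place in the complex and the 4 groups in colour. The subunit genes lie between 191 and 1153 FPKM, RPN4 lies below the other genes in each group mean, and in glucose the genotypes overlap for all genes but PRE3, RPN4, RPN11 and RPT5.

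FPT1 served as a check of the genotype. Its mean level was 52.1 FPKM in wild-type glucose and 148 FPKM in wild-type ethanol, and 0.0894 and 0.179 FPKM in the deletion groups. The 4 MATa markers STE2, MFA1, MFA2 and BAR1 had group means from 105 to 952 FPKM, and STE3, MFALPHA1 and MFALPHA2, genes of the other mating type, from 0.589 to 10.1. On the first principal component, which held 82.0% of the variance, wild-type ethanol libraries lay at 58.1, 56.9 and 47.0 and deletion ethanol libraries at 51.8, 35.3, 45.6 and 31.8, with all glucose libraries below 0.

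The first comparison asked how the move to ethanol changed proteasome transcripts in wild-type cells. As deposited, 27 of the 33 genes were called higher in ethanol and 0 lower (81.8%), where 50.5% of all genes tested were called higher and 24.8% lower, but the counts were 16 higher and 6 lower with library medians set equal (37.4% and 37.7% of all genes), and 3 higher and 11 lower after quantile normalization (35.2% and 39.9%). With every library brought to the same total they were 24 and 0 (43% and 28.7%). All ethanol libraries lay above all glucose libraries for 27 members, as for 51.4% of all genes. The median log2 change of the members was 0.47, against 0.31 over all genes, and 0.15 with medians set equal. The core particle had the higher median response, with 13 of 14 genes called higher and a median of 0.55, against 13 of 18 and 0.40 for the regulatory particle. Within these, all 7 beta genes were called (median 0.58), 6 of 7 alpha genes (0.47), 5 of 6 base ATPase genes (0.45), 2 of 4 other base genes (0.31) and 6 of 8 lid genes (0.27). All core genes are short, with coding lengths from 597 bases (PRE1) to 867 (PRE10), and most regulatory genes are longer. All tested genes below 900 bases had a median of 0.64, above that of the core. Whether place in the complex or length goes with the response was not tested. In a bulk sample, fewer cells that express a gene and less of its RNA per cell cannot be told apart.

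RPN4 (YDL020C, chrIV:415113-416708, minus) lay in the middle of the members in its response. Its 3 wild-type ethanol libraries read 156, 193 and 181 FPKM, against 134, 126 and 127 in glucose. All ethanol libraries lay above all glucose libraries. The log2 change of 0.45 ± 0.10 (SE; limma adjusted p = 0.0010) passed as deposited, but not with medians set equal (0.13, adjusted p = 0.20) or after quantile normalization (0.034, adjusted p = 0.75).

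Among the catalytic subunits, PRE3 (YJL001W, chrX:435163-435926, plus, the only member with an intron), whose product cuts after acidic residues, had the largest response of all members. It read 492, 490 and 505 FPKM in wild-type glucose and 916, 941 and 863 in wild-type ethanol. The groups are far apart relative to their spread. Its log2 change was 0.87 ± 0.08 (limma adjusted p = 1.5e-07), and the call held with medians set equal (0.55, adjusted p = 1.6e-05) and after quantile normalization (0.30, adjusted p = 0.0035). PRE2 (YPR103W, chrXVI:732349-733212, plus), which gives the chymotrypsin-like activity, read 478, 477 and 457 FPKM in glucose and 665, 670 and 679 in ethanol. It was called higher as deposited (0.51 ± 0.06, limma adjusted p = 3.6e-06) and with medians set equal (0.19, adjusted p = 0.017), and its estimate turned to -0.074 after quantile normalization. PUP1 (YOR157C, chrXV:630966-631751, minus), which gives the trypsin-like activity, read 303, 267 and 276 FPKM in glucose and a tight 391, 388 and 393 in ethanol. Its change of 0.47 ± 0.06 (limma adjusted p = 4.3e-06) was called, as was the 0.15 with medians set equal (adjusted p = 0.042) but not the 0.048 after quantile normalization. PRE3 thus lay further from its glucose level than either other catalytic gene on each of these scales, although the differences between genes were not tested.

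RPN11 (YFR004W, chrVI:153393-154313, plus), the deubiquitinase of the lid, read 452, 444 and 443 FPKM in wild-type glucose and 673, 751 and 708 in ethanol, with no overlap. Its change was 0.67 ± 0.06 (limma adjusted p = 2.9e-07), 0.35 with medians set equal (adjusted p = 9.4e-05) and 0.076 after quantile normalization, which was not called. The ubiquitin receptor gene RPN13 followed PRE3 with 450, 474 and 493 FPKM in glucose and 790, 880 and 747 in ethanol (log2 change 0.77 ± 0.11, limma adjusted p = 2.0e-05; 0.19 and not called after quantile normalization). PRE10, an alpha gene, came next with 540, 548 and 541 FPKM in glucose and 899, 906 and 868 in ethanol. Its change of 0.71 ± 0.06 (limma adjusted p = 9.9e-08) was called under each of the 4 scalings, as were those of PRE3 and PRE8, and of no other member. After quantile normalization PRE10 stood at 0.16, just inside the threshold (limma adjusted p = 0.0495).

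RPN1, RPN2 and RPN9 were at the other end. RPN1 (YHR027C, chrVIII:161730-164711, minus), a base subunit and a docking site for ubiquitin-like proteins, read 239, 224 and 238 FPKM in wild-type glucose and 220, 240 and 234 in ethanol. The groups overlap, and the change was -0.018 ± 0.062 (limma adjusted p = 0.81). RPN2 read 218, 215 and 226 FPKM in glucose and 230, 224 and 224 in ethanol (log2 change 0.040 ± 0.056, limma adjusted p = 0.53). RPN9, a lid gene, was uneven in ethanol at 497, 388 and 498 FPKM against 410, 475 and 432 in glucose (0.063 ± 0.107, adjusted p = 0.61). PRE6, RPN12 and RPT3 were the other members not called. With medians set equal, PRE6, RPN1, RPN2, RPN3, RPN12 and RPT3 were called lower, from -0.15 for RPN3, which is called higher as deposited (0.17, adjusted p = 0.014), to -0.34 for RPN1.

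**Figure D2:**
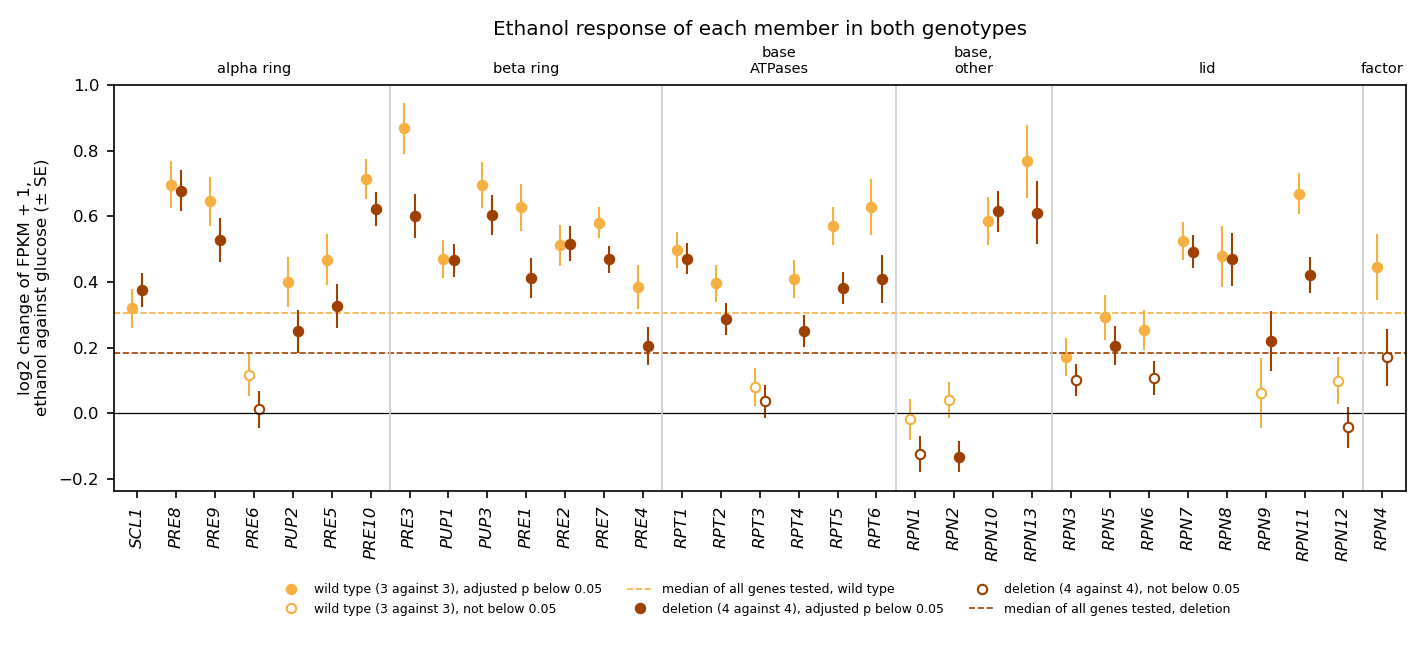
Log2 change of FPKM + 1, ethanol against glucose, for each gene in wild type (3 against 3 libraries) and deletion (4 against 4), with SE bars, filled where the limma adjusted p is below 0.05. The dashed lines are the medians of all genes (0.31 and 0.19), and RPN1 and RPN2 lie near 0 in wild type (-0.018 and 0.040) and below 0 in the deletion. Calls are for the deposited scale, and 15 of the 33 wild-type estimates stay above 0 under all 4 scalings.

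**Figure D3:**
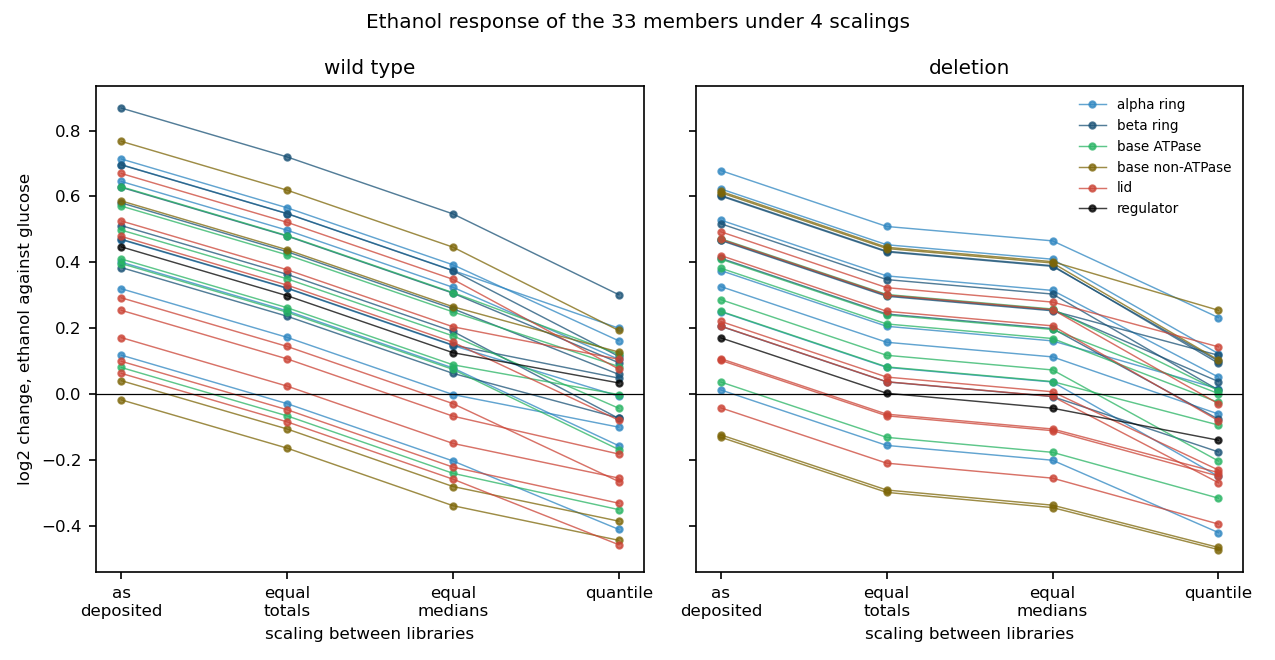
The same log2 changes under 4 scalings between libraries, 1 line per gene coloured by role, for wild type and deletion. The members' median falls from 0.47 as deposited to -0.0067 after quantile normalization in wild type, where PRE3 (0.30) and PRE8 (0.20) end highest among core genes.

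Ratios between members within a library do not depend on how libraries are scaled to each other by a factor. PRE3 over RPN1 was 2.06, 2.18 and 2.13 in wild-type glucose and 2.26, 2.13, 2.32 and 2.26 in deletion glucose. In ethanol the ratio was 4.17, 3.93 and 3.69 in wild type and 3.92, 3.96, 3.59 and 3.40 in the deletion, above every glucose library. PRE10 over RPN2 moved from 2.48, 2.55 and 2.39 to 3.92, 4.05 and 3.88 in wild type, and from 2.5, 2.37, 2.44 and 2.33 to 4.07, 4.33, 4.02 and 3.88 in the deletion. These pairs were chosen after the values were seen, as members at the ends of the range, so the ratios are a description.

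As a description on the deposited scale, median responses were larger in classes of shorter genes. The 3 longest subunit genes, RPN1, RPN2 and RPN3, with coding lengths of 2982, 2838 and 1572 bases, had a median wild-type change of 0.040, the 12 subunit genes of 900 to 1500 bases had 0.44 and the 17 shorter ones had 0.58. All tested genes with an annotated coding region showed the same order, with medians of 0.087 for 2176 genes, 0.40 for 1579 and 0.64 for 1977. Spearman's rho of the change against coding length was -0.55 over the 32 subunit genes and -0.24 over 5732 genes in wild type, and -0.50 and -0.28 in the deletion. All these points come from the same libraries and from values already divided by length, and the part of length in the response was not tested. Against the glucose level, rho was 0.57 over the subunit genes and -0.29 over all genes in wild type, opposite in sign. The change is computed from the same glucose values, and coding length and glucose level were themselves related (rho -0.51 over the subunit genes and -0.28 over all genes), so the trends with length and level are not separate.

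The second comparison took the same response in cells without FPT1. Of the 33 estimates, 29 were smaller than in wild type as deposited, where 68.1% of all genes had a smaller one. With medians set equal 17 of 33 were smaller, and 22 after quantile normalization. The share of all genes was not computed on these scales, where the median difference of all genes was -0.010 and -0.0067. As deposited, 25 of 33 genes were called higher and 1, RPN2, lower, where 46.9% of all genes were called higher and 27.7% lower, and the counts became 18 and 5 with medians set equal (36.6% and 38.6% of all genes) and 3 and 12 after quantile normalization (34.6% and 40.9%). With equal totals they were 18 and 3 (37.1% and 34.2%). Ethanol libraries all lay above glucose libraries for 25 members, as for 43.7% of all genes, and all below for 1, as for 25.7%. The members' median was 0.38, against 0.19 over all genes. The core particle again had 13 of 14 genes called higher (median 0.47), and the regulatory particle, with mostly longer genes, 12 of 18 (median 0.27). PRE8, an alpha gene, led with 355, 331, 339 and 368 FPKM in glucose and 566, 565, 564 and 535 in ethanol, well apart (log2 change 0.68 ± 0.06, limma adjusted p = 2.5e-07, and called under all 4 scalings). PRE10 (0.62 ± 0.05, adjusted p = 1.1e-07) and the ubiquitin receptor gene RPN10 (0.62 ± 0.06, adjusted p = 7.1e-07) followed, of which RPN10 was called under all 4 scalings and PRE10 under all but the quantile one. The lid gene RPN7 was the only other member called under all 4. Its change was 0.49 as deposited and 0.14 after quantile normalization (limma adjusted p = 0.011 for the latter).

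At the low end, RPN2 read 220, 233, 218 and 218 FPKM in deletion glucose and 216, 191, 207 and 198 in ethanol. No ethanol library reached the glucose range, and RPN2 fell by 0.13 ± 0.05 on the log2 scale (limma adjusted p = 0.024). That call was the only lower one, and without 1 library at a time the number of lower calls ran from 0 (without deletion ethanol replicate 2, deletion ethanol replicate 4 or deletion glucose replicate 2) to 2 (without deletion ethanol replicate 1, deletion glucose replicate 4 or wild-type ethanol replicate 1), the second being RPN1. RPN1 stood at -0.12 ± 0.05 (adjusted p = 0.052) and RPN12 at -0.042 ± 0.063.

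RPN4 in deletion cells read 144, 145, 155 and 148 FPKM in glucose and 197, 158, 172 and 144 in ethanol. Replicate 4 in ethanol, of strain NKI5620, lay inside the glucose range and the other 3 above it. The change of 0.17 ± 0.09 missed the threshold (limma adjusted p = 0.091). Without that library it was 0.24 and called (limma adjusted p = 0.018, with 47.1% of all genes called higher). This was the only call among 14 fits that each left out 1 library. With NKI5633 alone in both media the change was also called (0.24, limma adjusted p = 0.032, with 45.7%). It stood at -0.043 with medians set equal. PRE3, the wild-type leader, read 530, 518, 533 and 507 FPKM in deletion glucose and 909, 797, 762 and 713 in ethanol (0.60 ± 0.07, limma adjusted p = 1.7e-06; 0.10 and not called after quantile normalization).

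Across the 33 genes the responses of the genotypes, which share no library, had a Pearson r of 0.912, against 0.959 over 6267 genes, as a description. As deposited, 24 of 33 genes were called higher in both genotypes, as were 44.9% of all genes. RPN3, RPN4 and RPN6 passed in wild type alone, RPN9 in the deletion alone, and PRE6, RPN1, RPN2, RPN12 and RPT3 in neither. These 4 one-sided cases are not shown to differ, since the adjusted p for the difference of responses was 0.57, 0.21, 0.25 and 0.49 for RPN3, RPN4, RPN6 and RPN9.

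In glucose, loss of FPT1 changed no proteasome gene detectably. Limma called 0 of 33 members, where 0.0319% of all genes were called, and 0 had an unadjusted p below 0.05, where 11.5% of all genes did. The median difference, deletion minus wild type, was -0.010 against 0.077 over all genes. Of the 33 estimates, 20 were below 0, where 4585 of 6267 genes were above 0. With medians set equal 31 of 33 were below 0, and the median was -0.10 against -0.013 over all genes. The share of all genes below 0 was not computed on that scale. RPN4 was the member furthest from 0, with 144, 145, 155 and 148 FPKM against 134, 126 and 127, and each of the 4 deletion libraries exceeded each of the 3 wild-type ones. The difference of 0.20 ± 0.09 did not pass (limma adjusted p = 0.44). RPN11 (481, 476, 492 and 479 FPKM against 452, 444 and 443; 0.11 ± 0.06, adjusted p = 0.48), RPT5 (0.076 ± 0.053) and PRE3 (0.074 ± 0.072) were the other genes without overlap, so 4 of 33 lay above where 15.6% of all genes did, and 0 of 33 lay below where 2.12% did. RPN9 (-0.081 ± 0.10), RPT1 (-0.063 ± 0.052) and PRE6 (-0.055 ± 0.062) were lowest. PRE2 (0.018 ± 0.058) and PUP1 (0.022 ± 0.054) were near 0.

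In ethanol, deletion cells had slightly lower proteasome transcripts by estimate, with no call. Limma called 0 of 33 members, where 0.0319% of all genes were called. An unadjusted p below 0.05 was found for 15 members (24.1% of all genes), all with lower estimates, and 29 of 33 estimates were below 0, where 42.5% of all genes were above 0. The median difference was -0.11, against -0.036 over all genes. PRE1, a beta gene, was lowest with 937, 875, 827 and 788 FPKM in the deletion against 989, 1033 and 960 in wild type, without overlap (-0.22 ± 0.07, limma adjusted p = 0.11). PRE4 (-0.20 ± 0.06) and PRE3 (-0.19 ± 0.07, with 1 deletion library inside the wild-type range) came next, while RPN9 (0.077 ± 0.10), SCL1 (0.028 ± 0.056) and PRE2 (0.023 ± 0.058) were highest. PRE1, PRE7, RPN2, RPN3, RPN6, RPT2 and RPT4, 7 of 33, lay below wild type in every deletion library, where 4.12% of all genes did, and 0 of 33 lay above, where 3.24% did. RPN4 read 197, 158, 172 and 144 FPKM against 156, 193 and 181 (-0.078 ± 0.094, adjusted p = 0.64), RPN11 differed by -0.14 ± 0.06 (adjusted p = 0.18) and PUP1 by 0.019 ± 0.054.

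Single libraries decided this count. Without wild-type ethanol replicate 3, which was the lowest of its group for 22 of 32 subunit genes, 7 members were called lower in the deletion (PRE1, PRE4, PRE6, PUP2, RPN12, RPT4 and RPT6), where 6.72% of all genes were. Without deletion ethanol replicate 1, the highest of its group for 23 of 32, the called members again numbered 7 (PRE1, PRE3, PRE4, PRE5, RPN2, RPN6 and RPT4), where 6.77% of all genes were. PRE1, PRE4 and RPT4 were called in both cases. These libraries lie nearest to the other genotype on the first principal component given above. Whether the position of a library on that component has a part in these calls was not tested.

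**Figure D4:**
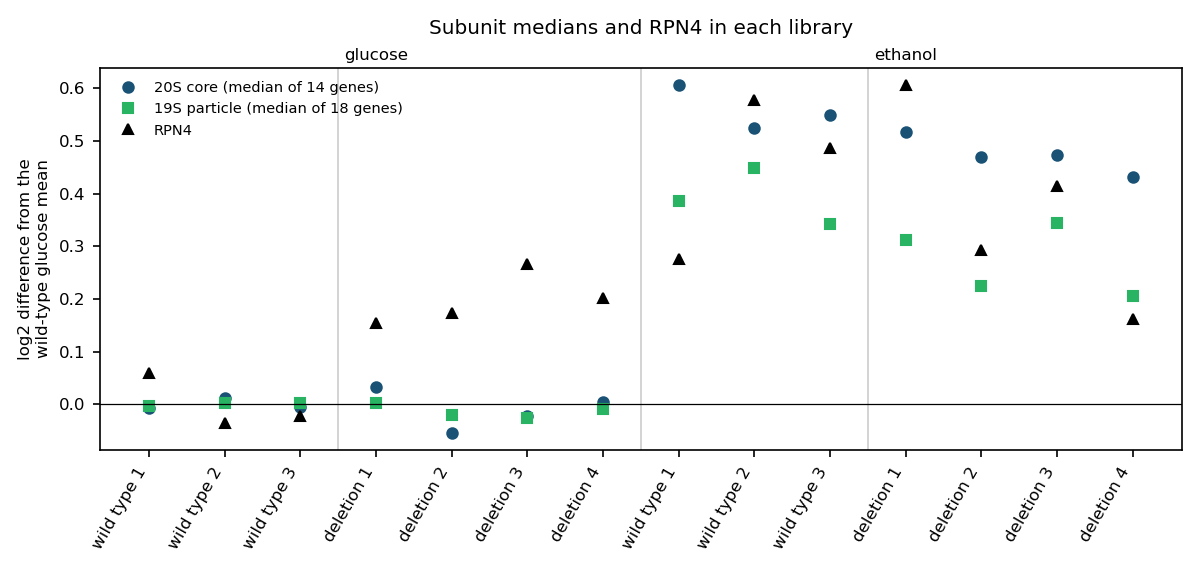
Log2 difference from the wild-type glucose mean in each of the 14 libraries, for the median of the 14 core genes, the median of the 18 regulatory particle genes and RPN4. In every ethanol library the core median (0.43 to 0.61) lies above the regulatory median (0.21 to 0.45), while RPN4 varies more from library to library. Core genes are also shorter than most regulatory genes.

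The difference of the ethanol responses, deletion minus wild type, was also tested directly. Limma called 0 of 33 members and 0 of all 6267 genes, a background of 0%. An unadjusted p below 0.05 was found for 5 members, where 25.6% of all genes had one. The members' median of -0.11 was near the -0.12 of all genes, and with medians set equal it was -0.0017 against -0.010. RPN4 (-0.28 ± 0.13, limma adjusted p = 0.21), PRE3 (-0.27 ± 0.10, adjusted p = 0.15) and RPN11 (-0.25 ± 0.08, adjusted p = 0.14) were lowest, and RPN9 (0.16 ± 0.14), SCL1 (0.055 ± 0.080) and RPN10 (0.029 ± 0.096) highest, with PRE2 (0.0055 ± 0.0819) and PUP1 (-0.0037 ± 0.0766) near 0. Without wild-type ethanol replicate 3, RPT6 was called (-0.32, adjusted p = 0.045), where 6.65% of all genes were called lower. Without deletion ethanol replicate 1, PRE3 (-0.33, adjusted p = 0.026) and RPN11 (-0.29, adjusted p = 0.033) were, where 9.35% of all genes were.

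Responses to ethanol were also set beside the presence of PACE, with no test of a difference. The 27 members with PACE had a median wild-type change of 0.41 with 21 called higher as deposited, where 50.5% of all genes were called higher with a median of 0.31. The 6 without an exact copy, which are RPN4 and the 5 genes with 1 mismatch, had 0.47 with 6 called. Members with exact copies included PRE3, PRE10 and PRE8, with changes of 0.87, 0.71 and 0.70. They also included RPN1 and RPN2, the lowest of all members at -0.018 and 0.040. These genes were picked by value, at the ends of the range, so they describe that range only. The 44 tested genes outside the complex that hold PACE had a median of 0.43, with 30 called higher and 6 lower as deposited (50.5% and 24.8% of all genes), and 0.11 with 18 higher and 11 lower with medians set equal (37.4% and 37.7%).

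For 7 members the copy of PACE also lies in the window of the gene on the opposite strand. As deposited, these neighbours moved by more than the proteasome gene and not always the same way. NOP14, which acts in making the small ribosomal subunit and shares its PACE with RPN5, stood at 181 ± 10.4 FPKM in wild-type glucose and 35.9 ± 12.6 in ethanol (SD, n = 3), and fell by 2.35 ± 0.20 on the log2 scale (limma adjusted p = 1.3e-07) while RPN5 stood at 0.29. GCD1, a subunit of a translation initiation factor, fell by 1.14 ± 0.11 beside RPT4 at 0.41. MPO1, which acts in breakdown of a long-chain fatty acid and shares the copy of SCL1, rose from 48.0 ± 3.68 to 218 ± 13.9 FPKM (2.16 ± 0.11, limma adjusted p = 8.8e-10), where SCL1 changed by 0.32. ALG13, of protein glycosylation, rose by 1.86 beside RPT6 at 0.63, YPI1, a regulator of a protein phosphatase, by 1.56 beside RPN11 at 0.67, and YTH1, of messenger RNA processing, by 1.11 beside RPN7 at 0.53. These 6 neighbours kept their direction and call with medians set equal and after quantile normalization. Of the proteasome genes beside them, RPN5, SCL1 and RPT4 lost the call with medians set equal (-0.029, -0.0017 and 0.089). RPN7, RPN11 and RPT6 lost it after quantile normalization (0.11, 0.076 and 0.12). On that scale RPN5 was called lower (-0.27, limma adjusted p = 0.00066), and RPT4 stood at -0.0017. The opposite directions of NOP14 and RPN5, and of GCD1 and RPT4, thus depend on the scaling. YOL038C-A, beside PRE6, rose by 1.27 ± 0.42 (limma adjusted p = 0.013) at a low level of 5.07 to 12.8 FPKM, and its call was lost with medians set equal.

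**Figure D5:**
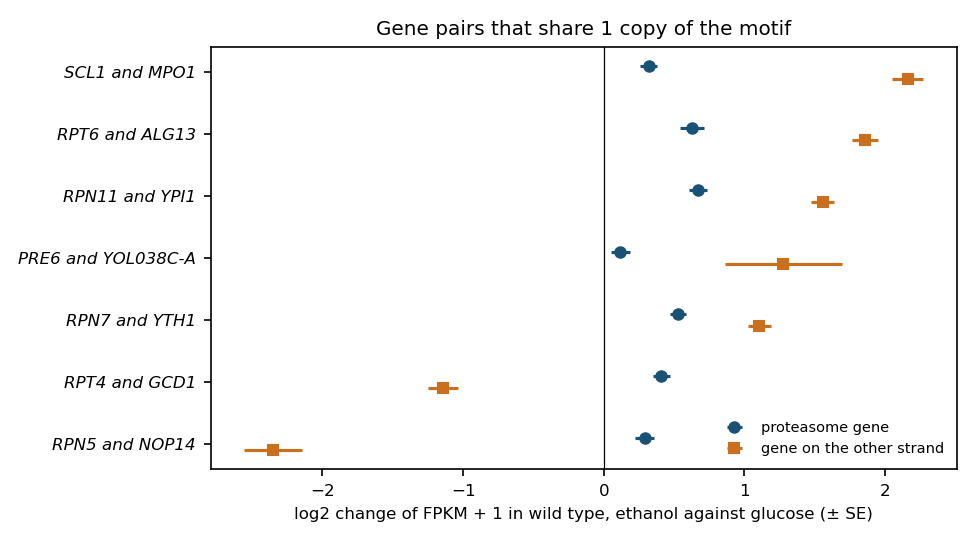
Log2 change of FPKM + 1 in wild type, ethanol against glucose (SE bars), for 7 proteasome genes and the gene on the opposite strand whose window holds the same copy of PACE. On the deposited scale, proteasome genes lie between 0.12 and 0.67, and the neighbours between -2.35 and 2.16.

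Genes that build, feed or control the proteasome were followed in 7 lists, in the wild-type response as deposited. Their counts stand beside 50.5% of all genes called higher and 24.8% lower, and beside 37.4% and 37.7% with medians set equal. Assembly chaperones had a higher median than the subunit genes, a difference that was not tested: 9 of 10 were called higher and 0 lower, with a median of 1.03, and 9 higher and 1 lower (median 0.71) with medians set equal. TMA17, a chaperone of the base ATPases that is induced by stress, rose from 94.2 ± 7.33 to 860 ± 122 FPKM (SD, n = 3; 3.17 ± 0.15, limma adjusted p = 4.6e-10). POC4 rose by 1.63 and UMP1, which guides the maturation of the core, by 0.86, each also called under all 4 scalings. Of 8 proteasome-associated factors, 6 were called higher and 0 lower (5 and 2 with medians set equal). This list holds SEM1 (0.97), which is a lid subunit but not among the members described above. SPG5, needed for proteasomes in stationary phase, rose by 2.58, FUB1, a proteasome-binding protein, by 1.78, and UBP6, a deubiquitinase, by 0.61, while BLM10, an alternative cap of the core, stood at -0.059 (adjusted p = 0.48).

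Of the 4 ubiquitin genes 1 was called higher and 3 lower, also with medians set equal. UBI4, the stress-induced gene of head-to-tail ubiquitin repeats, rose from 147 ± 7.52 to 1237 ± 209 FPKM (3.05 ± 0.12, limma adjusted p = 1.0e-10). RPL40A, RPL40B and RPS31, which make ubiquitin fused to a ribosomal protein, fell by 0.42, 0.97 and 1.01, although RPL40A was not called lower after quantile normalization. These genes share ubiquitin sequence, and RPL40A and RPL40B are near copies, so their split is uncertain where counting could divide reads. Among 11 genes of ubiquitin activation and conjugation 7 were called higher and 1 lower (6 and 3 with medians set equal). UBC8, a conjugating enzyme that acts in the turnover of a gluconeogenic enzyme, rose by 3.46 ± 0.17 (limma adjusted p = 7.5e-10), UBC5, a near copy of UBC4 whose reads may be split with it, by 2.58, while UBC11, the gene called lower and named after its value was seen, fell by 2.28.

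Of 8 shuttle factors and genes of the Cdc48 system 6 were called higher and 1 lower (4 and 1 with medians set equal, 2 and 2 after quantile normalization). DDI1, a ubiquitin shuttle with a protease fold, rose by 1.45 and RAD23, another shuttle and the gene called lower, named after its value was seen, fell by 0.40, both called under all 4 scalings. NPL4, a partner of Cdc48, rose by 0.54 as deposited and 0.22 with medians set equal, and was also called under all 4. CDC48, the ATPase that extracts tagged proteins and itself has PACE in its window, rose by 0.46 (adjusted p = 1.2e-04) as deposited, but was not called with medians set equal (0.14) or after quantile normalization (-0.12). Among 6 genes that control Rpn4, 1 was called higher and 1 lower (1 and 2 with medians set equal). YAP1, an activator of RPN4 in oxidative stress, was called higher (0.57 ± 0.07, adjusted p = 2.4e-06) and PDR1 lower (-0.28 ± 0.08, adjusted p = 0.0062), both also called under the other scalings. UBR2, the ligase that marks Rpn4, and HSF1 were not called (0.23, adjusted p = 0.059, and 0.14, adjusted p = 0.23), and the estimate of each turned negative with medians set equal (-0.088 and -0.18) and after quantile normalization, where UBR2 was called lower (-0.29, adjusted p = 0.0078). Of 8 protein quality-control ligases 2 were called higher and 3 lower (2 and 5 with medians set equal), with HUL4 at 1.5 and SAN1 at -0.93. In the deletion, the lists gave 9 and 0, 5 and 1, 1 and 2, 8 and 1, 7 and 1, 2 and 1, and 2 and 3 genes called higher and lower in the order above, where 46.9% and 27.7% of all genes were. With medians set equal in the deletion, assembly chaperones had 9 and 1, associated factors 4 and 3, and ubiquitin genes 1 and 2. Conjugation genes had 5 and 2, shuttle factors 4 and 1, control of Rpn4 0 and 4, and ligases 2 and 5. Of all genes, 36.6% were then called higher and 38.6% lower. No gene of the lists was called for the deletion in either medium or for the difference of responses.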

How the data were processed

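The authors deposited 1 table of FPKM values with a column for each of the 14 libraries. Per the labels' protocols, these are poly(A) libraries made with a stranded kit and sequenced as 65-base single reads. Alignment with STAR 2.7.1a to sacCer3 is taken from tool and build names per the submitters' processing notes. Which program computed FPKM, and with which annotation, strand setting and depth, was not given in the sources used here. Whole reads could not be recovered from the values. FPKM totals differ between libraries, so scaling between them was varied.

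From these values log2(FPKM + 1) was computed, on which changes of low genes are understated. The 6267 genes that reached 1 FPKM in 3 or more libraries were fitted with limma 3.58.1 in R 4.3.3, with 1 mean per group over all 14 libraries and a mean-variance trend. P-values are two-sided, adjusted by Benjamini-Hochberg over all genes tested, with a threshold of 0.05. The fit was tested on simulated data. Errors are SE of a log2 change or SD of FPKM. The 5 comparisons, some of which share libraries, were ethanol against glucose in each genotype, deletion against wild type in each medium, and the difference of responses. Alternatives were 2 other pseudocounts, 2 other filters, 3 scalings between libraries (equal totals, equal medians, quantile normalization), a replicate block, a fit of only the groups compared, NKI5633 only and each library left out in turn. The scalings of the lists and neighbouring genes were added after seeing the data. Positions and windows came from the RefSeq annotation of R64, the assembly of sacCer3, matched by systematic name, with a coding region found for 5987 of 6664 genes.

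The members, the lists, the motifs and the rule for named genes were chosen with earlier results of these data known. The rule takes RPN4, PRE2, PRE3, PUP1 and RPN11 always, the 3 highest and 3 lowest members of each comparison, FPT1, and from the lists 9 fixed genes plus the 2 with the largest absolute wild-type response in each.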

Additional observations from a re-analysis of the deposited data

Results flagged for a closer look

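Dixon's test asks whether the highest or lowest of 4 libraries stands apart, from the gap to its neighbour over the range. Of 66 group tests (33 genes in each of the 2 deletion groups), 5 passed, and about 1 in 20 would by chance. In deletion glucose, PRE1 read 614 FPKM in replicate 3 against 651, 651 and 653, RPN2 read 233 in replicate 2 against 218, 218 and 220, RPN10 read 286 in replicate 4 against 301, 303 and 303, and RPT5 read 366 in replicate 4 against 356, 357 and 358. In deletion ethanol, PRE8 read 535 FPKM in replicate 4 against 564, 565 and 566. The gap over the range was 0.938, 0.876, 0.91, 0.842 and 0.933 in that order. Both replicate 4 libraries are strain NKI5620, and with NKI5633 alone 26 members were called higher in ethanol, as were 45.7% of all genes.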

How the results depend on the processing

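Scaling between libraries moved the ethanol results most. In wild type the members' median change was 0.32 with equal totals, 0.15 with medians set equal and -0.0067 after quantile normalization, and in the deletion 0.21, 0.17 and -0.061. Members called higher and lower were 24 and 0, 16 and 6, and 3 and 11 in wild type, and 18 and 3, 18 and 5, and 3 and 12 in the deletion. All genes split 3163 higher to 1555 lower as deposited in wild type, 2697 to 1799 with equal totals, 2343 to 2362 with medians equal and 2206 to 2503 after quantile normalization, and in the deletion 2939 to 1733, 2322 to 2145, 2295 to 2421 and 2171 to 2565. RPN4 changed by 0.13 and 0.034 in wild type with medians equal and after quantile normalization, neither called, and by -0.043 and -0.14 in the deletion. With medians equal, the sign turned in wild type for PRE6 (-0.20), RPN12 (-0.22), RPN2 (-0.28), RPN3 (-0.15), RPN5 (-0.029), RPN6 (-0.067), RPN9 (-0.26), RPT3 (-0.24) and SCL1 (-0.0017), and in the deletion, beside RPN4, for PRE4 (-0.0079), PRE6 (-0.20), RPN3 (-0.11), RPN5 (-0.0073), RPN6 (-0.11) and RPT3 (-0.18). After quantile normalization it turned in wild type for PRE2 (-0.074), PRE4 (-0.073), PRE5 (-0.0067), PRE6 (-0.41), PUP2 (-0.16), RPN12 (-0.33), RPN2 (-0.39), RPN3 (-0.26), RPN5 (-0.27), RPN6 (-0.18), RPN8 (-0.080), RPN9 (-0.46), RPT1 (-0.043), RPT2 (-0.17), RPT3 (-0.35), RPT4 (-0.0017) and SCL1 (-0.10). In the deletion, beside RPN4, it turned for PRE1 (-0.076), PRE4 (-0.18), PRE5 (-0.061), PRE6 (-0.42), PUP2 (-0.25), RPN11 (-0.081), RPN3 (-0.25), RPN5 (-0.27), RPN6 (-0.24), RPN8 (-0.030), RPN9 (-0.23), RPT2 (-0.20), RPT3 (-0.32), RPT4 (-0.094) and RPT5 (-0.026). The members' median for the deletion in glucose was -0.10 with medians equal, against -0.013 over all genes. The cause of these shifts was not tested.

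The lower calls in the deletion's ethanol response, 1 as deposited, numbered 2 with pseudocount 0.1 or no filter, 0 in a fit of only the groups compared and 0 with NKI5633 alone, where RPN4 was called at 0.24. Apart from the strain of deletion replicate 4, no pairing by replicate number was seen. Same-numbered libraries had correlations of their deviations from -0.42 to 0.17 across media and from -0.26 to 0.32 across genotypes. Across media, 2 of 7 correlated best with their own number. Such values cannot show that the samples are unpaired, and the main fit treated them as unpaired. With the replicate block 27 members were called higher in wild type (49.3% of all genes), 24 higher and 0 lower in the deletion (45.6% and 26.2%), and 0 in the other comparisons.

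With 1 library left out at a time, members called higher ranged from 26 to 29 in wild type and 24 to 26 in the deletion, and called lower from 0 to 2 in the deletion response, 0 to 7 for the deletion in ethanol and 0 to 2 for the difference of responses. The members' median ranged from 0.46 to 0.50 and 0.37 to 0.42 for the ethanol responses, -0.020 to -0.0011 and -0.14 to -0.096 for the deletion in glucose and ethanol, and -0.13 to -0.077 for the difference. RPN4 ranged from 0.38 to 0.53 and 0.091 to 0.24 for the responses, 0.18 to 0.23 and -0.16 to -0.0090 for the deletion, and -0.36 to -0.21 for the difference. The depth of the libraries is unknown, so no interval for counting error is given.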

Other observations

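Outside the complex, 45 genes held PACE in the searched window, of which 38 shared no copy with a member. Among those tested, ACS1, which makes acetyl coenzyme A from acetate, had a wild-type ethanol response of 5.16 on the log2 scale (limma adjusted p = 1.1e-09). ATG14, of autophagy, stood at 2.58 and SDH9, a succinate dehydrogenase subunit paralog, at 1.62. PDI1, of protein folding in the endoplasmic reticulum, stood at -0.58 and the chaperonin subunit gene CCT6 at -0.41, both called lower as deposited. Of the lists above, UBI4, the ubiquitin-activating gene UBA1, CDC48, YAP1 and ECM29 also hold it. Their changes were 3.05, 0.34, 0.46, 0.57 and -0.13. These genes were chosen after their values were seen.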
